A study of Drosophila melanogaster with 2 samples.

Results

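Regions bound by a GFP-tagged form of the zinc finger protein fu2 were examined at 8 growth control genes of Drosophila melanogaster, namely Myc, Max, Tor, raptor, S6k, Thor, Rheb and larp. The genes were taken by name, with earlier results of these data known, and are 8 of 13968 protein coding genes on the chromosome arms. Tor was found under the annotation name mTor through its synonym. Every listed region over the body of a gene or within 2 kb of it was taken. The data were chromatin immunoprecipitation followed by sequencing (ChIP-seq) with an antibody against GFP, in a transgenic line that stably carries fu2 with GFP at its C-terminus. The gene name fu2 is a synonym of prg, the gene that the labels name as targeted. Whole embryos 0 to 24 h old, of both sexes pooled, gave the 2 replicates of the 1 group, which the labels number 2 and 3 as biological replicates without saying whether they were separate collections. All embryos carried the tagged protein, and neither untagged embryos nor a control library were analysed here, and the background of the assay is therefore not known from these data. The lists mix all cell types of the embryo, and a region shows enrichment of the tagged protein, not regulation of a gene.

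Myc is a basic helix-loop-helix leucine zipper transcription factor that pairs with Max, binds E-boxes and drives genes of ribosome production and cell growth. Tor is the kinase of the TOR complex, in which raptor recruits substrates and which the small GTPase Rheb activates when nutrients and insulin signals are present. The kinase S6k and the translation repressor Thor, the fly 4E-BP, are phosphorylated by this complex. The La-related protein larp binds RNA, and its mammalian counterpart LARP1 controls the translation of messenger RNAs for ribosomal proteins downstream of TOR.

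The sequences below are those the values turn on. They are from the plus strand of the NCBI Release 6 (dm6) genome, up to 80 bp to either side of a summit of the pooled list, with any UTR bases left out. Capitals mark words that were searched for on both strands. The larp intron summit was the strongest at these genes (chr3R:28326537-28326697) and held none of the words searched. The summit before the first larp start (chr3R:28336441-28336592) held TAGAGATG, the reverse complement of CATCNCTA, a form of a word known from fly core promoters as motif 7. The Tor summit (chr2L:13004132-13004292) held the same word. The Myc intron summit (chrX:3381842-3382002) and another larp intron summit (chr3R:28328865-28329025) held ATCGAT, the inner bases of the DNA replication-related element (DRE) TATCGATA. The Rheb promoter summit (chr3R:5568699-5568859) held no word. The Max intron summit (chr3L:19263637-19263765), which did not pass the authors' threshold, held CACGTG, the E-box that Myc and Max bind.
larp intron: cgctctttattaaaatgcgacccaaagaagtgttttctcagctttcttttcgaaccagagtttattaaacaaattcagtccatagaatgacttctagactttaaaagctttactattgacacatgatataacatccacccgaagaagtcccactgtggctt
larp first start: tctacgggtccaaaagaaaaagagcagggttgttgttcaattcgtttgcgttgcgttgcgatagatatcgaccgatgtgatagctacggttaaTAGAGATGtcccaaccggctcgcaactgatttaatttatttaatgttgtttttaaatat
Tor: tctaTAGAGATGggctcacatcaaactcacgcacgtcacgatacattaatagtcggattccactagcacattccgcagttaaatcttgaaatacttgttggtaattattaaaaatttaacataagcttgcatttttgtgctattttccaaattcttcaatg
Myc intron: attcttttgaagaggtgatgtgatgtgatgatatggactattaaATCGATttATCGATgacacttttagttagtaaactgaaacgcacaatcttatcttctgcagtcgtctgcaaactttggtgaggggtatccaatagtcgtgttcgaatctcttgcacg
larp second intron site: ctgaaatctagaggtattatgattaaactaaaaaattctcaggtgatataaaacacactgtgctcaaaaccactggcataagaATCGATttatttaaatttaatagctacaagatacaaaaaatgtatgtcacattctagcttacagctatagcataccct
Rheb: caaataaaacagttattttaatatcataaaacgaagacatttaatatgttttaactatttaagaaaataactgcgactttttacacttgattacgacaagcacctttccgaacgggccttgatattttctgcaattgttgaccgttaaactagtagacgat
Max intron: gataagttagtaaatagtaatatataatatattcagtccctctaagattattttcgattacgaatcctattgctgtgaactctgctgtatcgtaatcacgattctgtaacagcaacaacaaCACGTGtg

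Strong regions were found at 5 of the 8 genes, and larp stood first among them in every list. The authors' irreproducible discovery rate (IDR) step, which compares the ranks of regions between replicates, kept the strongest 3033 regions of the pooled list. These are called IDR peaks here. A single IDR peak can still rank far apart in the 2 replicates. The lowest signal value among the IDR peaks was 62.5, the authors' enrichment score for a region. Myc, Tor, Thor, Rheb and larp had an IDR peak over the gene or within 2 kb, which was true of 30.6% of all protein coding genes. Tor, Thor, Rheb and larp, 4 of the 8, had an IDR summit no more than 500 bp from one of their transcript starts, compared with 17.5% of all protein coding genes. All 8 had a region of the pooled list, as did 81.9% of protein coding genes. No test was made of these counts, since the genes were proposed with results of these data known. Gene lengths ran from 1179 bp (Thor) to 18539 bp (Myc), against a median of 2164.5 bp over all protein coding genes. Only Thor, Rheb and Max were shorter than that median, and a longer gene has a wider window. The shares of genes given here were not matched for gene length.

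The pooled list placed 57 regions at the 8 genes, the list of replicate 2 placed 47 and that of replicate 3 placed 66. Of the 57 summits, 18 lay in introns, 17 upstream, 9 downstream, 9 in coding exons, 3 in 5′ UTRs and 1 in a 3′ UTR. The nearest transcript start belonged to the gene itself for 37 of the 57 regions and for 8 of the 9 IDR peaks. All 9 IDR peaks were listed in both replicates, as were 3029 of all 3033, and 7 of them were among the strongest 3033 regions of both, as were 2245 of all 3033 IDR peaks (74.0%). The exceptions were the Rheb peak, at rank 3083 in replicate 3, and 1 larp peak, at rank 7301 in replicate 2. Of the 48 regions under the threshold, 30 (62.5%) were listed in both replicates, against 47.4% of all 26967 pooled regions under it. None of the 48, and 0.352% of the 26967, were among the strongest 3033 of both.

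Signal values of separately called lists share no scale, so the lists are compared by rank, in which 1 is the strongest of 30000 regions. Ranked by their best region in the pooled list, the order was larp (rank 24), Tor (797), Thor (2155), Rheb (2263), Myc (2322), S6k (3478), raptor (4023) and Max (8085). In replicate 2 the best ranks were 26 for larp, 1128 for Tor, 1544 for Rheb, 1759 for Thor, 2172 for Myc, 2691 for S6k, 3639 for raptor and 5457 for Max. In replicate 3 they were 20 for larp, 691 for Tor, 1925 for Myc, 2739 for Thor, 3083 for Rheb, 4099 for S6k, 4649 for raptor and 6542 for Max. The first pair, larp and Tor, and the last 3, S6k, raptor and Max, kept their places in both replicates. Myc, Thor and Rheb changed places with each other between replicates, so their order was within the replicate spread. The median best rank of the 8 genes was 2292.5 in the pooled list, 1965.5 in replicate 2 and 2911 in replicate 3. Over all protein coding genes with a region the medians were 4785, 5194 and 4702, with no matching for gene length.

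**Figure D1:**
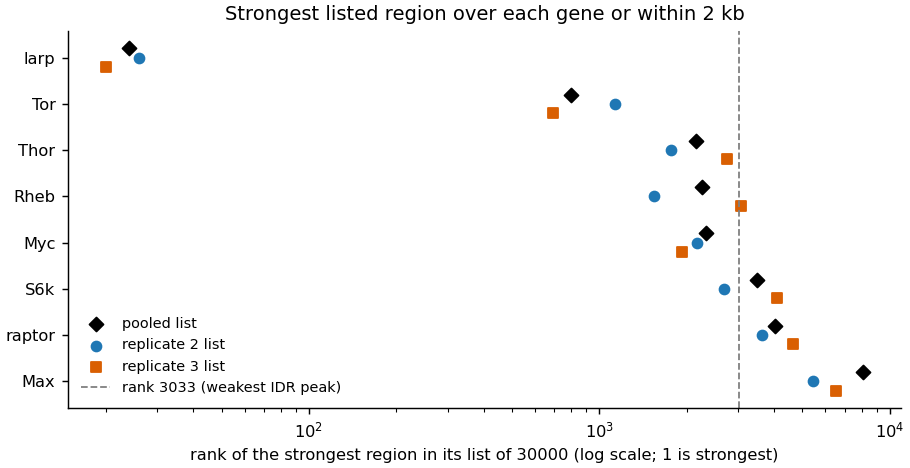
Best rank of each gene's regions (log scale, rank 1 is the strongest) in the pooled list and in the lists of replicates 2 and 3, with the dashed line at rank 3033. The points for larp lie between ranks 20 and 26, those for Tor between 691 and 1128, and all points for raptor and Max lie beyond rank 3033.

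Taking the strongest 3033 regions of each replicate alone, replicate 2 placed one at 6 of the 8 genes, against 30.7% of protein coding genes. Replicate 3 placed one at 4 of the 8, against 30.5% of protein coding genes. The mean share over the replicates was 62.5% ± 17.7 (SD, n = 2). S6k and Rheb made the difference, with a region of that strength in replicate 2 alone. Summits of that strength within 500 bp of a start were found at 50% of the genes in replicate 2 and 37.5% in replicate 3. The shares of all protein coding genes were 17.3% and 17.2%.

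At larp (FBgn0261618, 3R:28318162-28336440, minus strand), 5 IDR peaks were found, a number reached by 43 of 13968 protein coding genes (0.308%). Those 43 genes are long, with a median of 34679 bp, and 11 of them are shorter than larp at 18279 bp. The median over all protein coding genes was 2164.5 bp. The annotation gives larp 7 transcripts with 6 starts. Each of the 5 summits lay upstream of the larp start nearest to it, at 72 to 1268 bp. The starts are spread over 10199 bp, so any summit before the last start is upstream of some start.

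The strongest larp peak (summit 3R:28326617) lay in an intron, 353 bp upstream of the start of larp-RA and 376 bp upstream of that of larp-RE. Its signal was 742 in the pooled list (rank 24), 262 in replicate 2 (rank 26) and 482 in replicate 3 (rank 20). It was 6.14 times the second strongest larp region in the pooled list, 3.87 times in replicate 2 and 6.24 times in replicate 3. That second region was the peak before the first start in the pooled list and replicate 2. In replicate 3 it was the peak upstream of the larp-RF start (77.3). Both replicates thus placed the strongest peak far above all other regions of the gene.

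The next larp peak of the pooled list lay 72 bp upstream of the first start, that of larp-RD, and the antisense gene asRNA:CR46104 starts within 500 bp of it. Its signal was 121 in the pooled list (rank 1034), 67.5 in replicate 2 (rank 484) and 56.8 in replicate 3 (rank 1771). The peak 662 bp upstream of the larp-RB start had a signal of 102 (rank 1401), 36.0 in replicate 2 (rank 1620) and 64.9 in replicate 3 (rank 1392). This peak held its place closely in both replicates.

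The peak 1268 bp upstream of the larp-RF start differed most between replicates. Its signal was 85.8 in the pooled list (rank 1854), 14.4 in replicate 2 (rank 7301) and 77.3 in replicate 3 (rank 1008). The peak 155 bp upstream of the start shared by larp-RG and larp-RH had 80.9 in the pooled list (rank 2033), 28.3 in replicate 2 (rank 2380) and 53.8 in replicate 3 (rank 1921). The other 13 larp regions had pooled signals from 15.3 to 29.1, so none came near the threshold. Of these, the 6 with summits in coding exons had a GC content of 54.5% to 68.3%, against 28.7% to 49.5% for the 5 larp peaks and a median of 36.6% over all IDR peaks. The 4 intron regions under the threshold had a GC content of 31.7% to 41.6%, within the range of the larp peaks, and signals of 16.3 to 28.3.

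**Figure D2:**
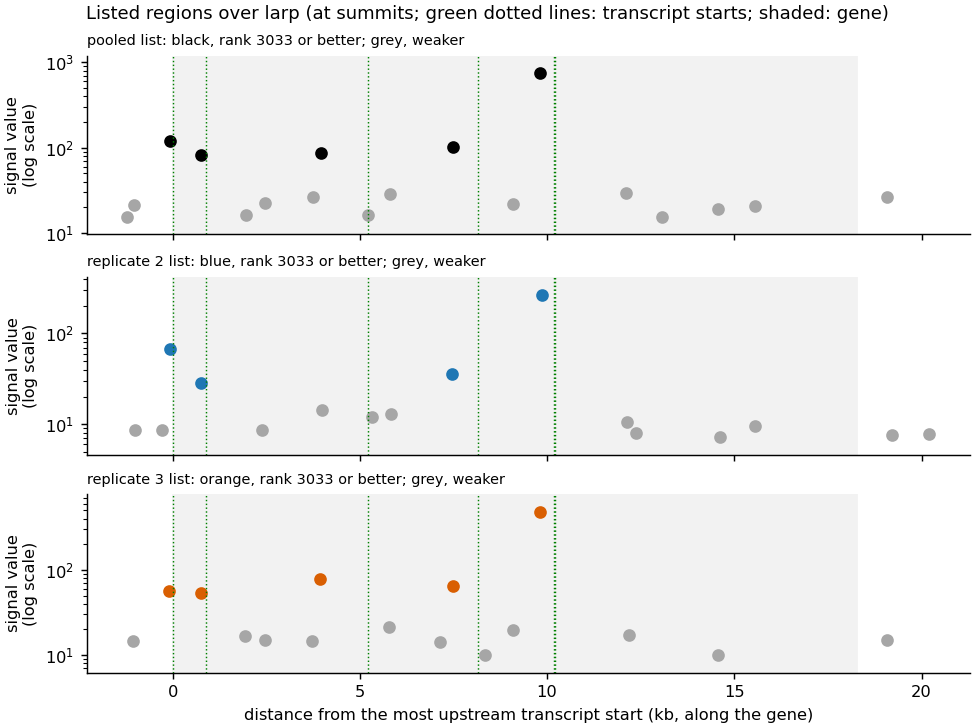
Signal (log scale) of each listed region over larp and 2 kb to either side, placed by the distance of its summit from the first transcript start, for the pooled, replicate 2 and replicate 3 lists. The 5 black points of the pooled list are the IDR peaks, and the highest, at 742, lies just upstream of the last pair of starts.

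At Myc (FBgn0262656, X:3373159-3391697, plus strand), the strongest enrichment lay inside the gene and not at its start. The IDR peak had its summit in an intron, 8763 bp downstream of the single start, which is shared with lncRNA:CR44999. Its signal was 74.5 in the pooled list (rank 2322), 29.6 in replicate 2 (rank 2233) and 53.7 in replicate 3 (rank 1925). A second region in the same part of the gene, 8051 bp from the start, fell just outside the threshold at a signal of 58.5 (rank 3313). In replicate 2 this second region was the stronger of the pair, at 30.1 (rank 2172), and in replicate 3 the weaker, at 33.7 (rank 3963). The replicates therefore did not give one order for the pair.

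The region over the Myc start, with its summit in the 5′ UTR 48 bp downstream, was weaker at 30.9 in the pooled list (rank 8414). It ranked at 6727 in replicate 2 and at 16494 in replicate 3, outside the strongest 3033 of both. Regions in the Myc 3′ UTR (45.6, rank 4739) and upstream of the gene (44.7, rank 4855) had higher pooled signals than the one at the start. In replicate 2 the upstream region was below the one at the start, with signals of 13.8 (rank 8014) and 15.0 (rank 6727). The nearest start was that of Myc for all 10 of its pooled regions.

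**Figure D3:**
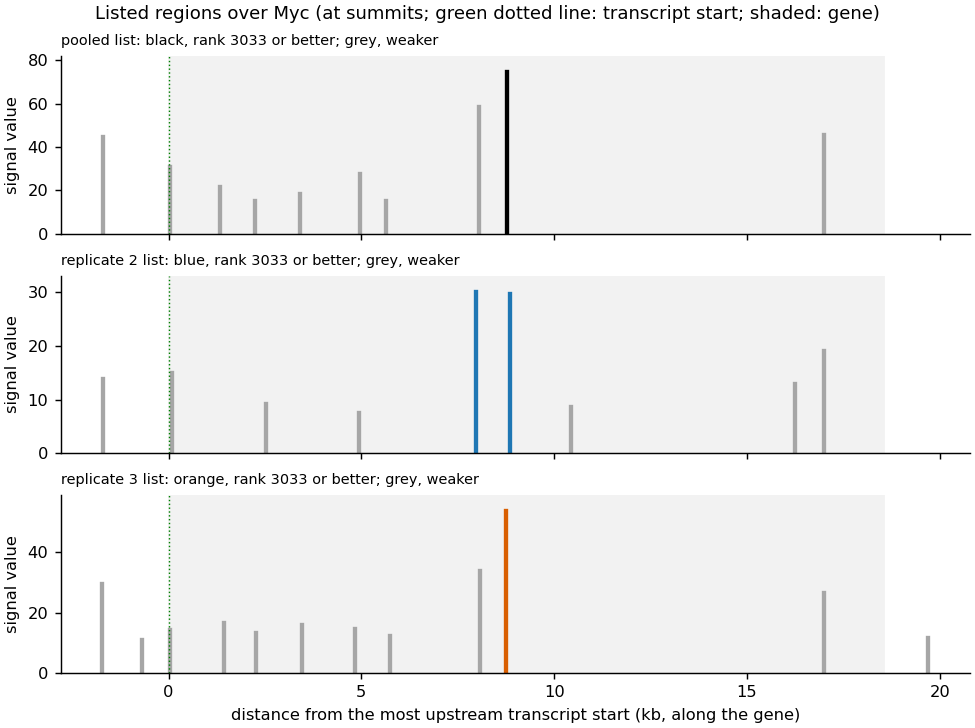
Signal of each listed region over Myc and 2 kb to either side, placed by the distance of its summit from the transcript start, for the 3 lists. The IDR peak at 8763 bp, drawn in black, reaches 74.5 and the region at 8051 bp beside it reaches 58.5, while the region at the start reaches 30.9.

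Max (FBgn0017578, 3L:19262232-19264184, minus strand), the partner of Myc, had the weakest best region of the 8 genes. Its strongest pooled region had its summit in an intron 467 bp downstream of the start, at a signal of 31.7 (rank 8085). The starts of Mettl5 and CG42374 also lie within 500 bp of that summit. The matching region had a signal of 7.75 in replicate 2 (rank 26645) and 24.6 in replicate 3 (rank 6542). The best Max region of replicate 2 was another one, at 16.8 (rank 5457). No transcript start of Max was the nearest start to any of its 6 pooled regions. The IDR peak closest to the Max start lay 8910 bp away, at rank 1756, and is the peak at the start of rept, which encodes a helicase that works with Myc.

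Tor (FBgn0021796, 2L:13004480-13013197, plus strand) had a single IDR peak, the second strongest region among the 8 genes by best rank. Its summit lay 268 bp upstream of the Tor start and nearer, at 105 bp, to the start of Vha68-1, which encodes a subunit of the proton pump V-ATPase and is read in the other direction. Its signal was 141 in the pooled list (rank 797), 44.4 in replicate 2 (rank 1128) and 96.4 in replicate 3 (rank 691). Both replicates held it among their strongest 3033 regions. The other pooled Tor region, in a coding exon, had a signal of 20.6 (rank 16792) and was not listed in replicate 3.

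At raptor (FBgn0029840, X:6082634-6090201, minus strand), no IDR peak was found and the strongest region lay at the starts of other genes. It had its summit 1080 bp upstream of raptor, at the starts of Nep1 and Mipp2, with a signal of 51.3 in the pooled list (rank 4023). It had 21.6 in replicate 2 (rank 3639) and 30.4 in replicate 3 (rank 4649). The second strongest, 2112 bp upstream of raptor and 543 bp downstream of the Nep1 start, had 46.9 in the pooled list (rank 4558), 17.8 in replicate 2 (rank 4936) and 30.2 in replicate 3 (rank 4688). The regions at the raptor start itself, with asRNA:CR44959 also starting within 500 bp, had 21.4 (rank 15761, 167 bp upstream) and 17.2 (rank 22989) in the pooled list. Neither of these was listed in replicate 2.

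Rheb (FBgn0041191, 3R:5568921-5570491, plus strand) had an IDR peak 142 bp upstream of its start, with the start of CG2931 also within 500 bp. Its signal was 75.9 in the pooled list (rank 2263), 37.2 in replicate 2 (rank 1544) and 40.1 in replicate 3 (rank 3083). The rank in replicate 3 lay just outside the strongest 3033 regions. The other Rheb region, downstream of the gene, had a signal of 18.8.

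Thor (FBgn0261560, 2L:3478434-3479612, plus strand) had an IDR peak with its summit in the 5′ UTR, 105 bp downstream of the first start and 17 bp downstream of the second. Its signal was 78.1 in the pooled list (rank 2155), 34.3 in replicate 2 (rank 1759) and 43.2 in replicate 3 (rank 2739). Both replicates held it among their strongest 3033 regions. A pair of weaker regions lay upstream, with summits 952 bp from the start (54.6, rank 3665) and 752 bp from it (44.7, rank 4857). Replicate 2 listed 1 region across the pair (rank 3457), and replicate 3 listed both (ranks 3481 and 5051).

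S6k (FBgn0283472, 3L:5797549-5810931, minus strand) had no IDR peak, and its best region came close to the threshold. Its summit lay in an intron 2714 bp downstream of the start, with a signal of 56.6 in the pooled list (rank 3478). The matching region had 26.2 in replicate 2 (rank 2691) and 33.0 in replicate 3 (rank 4099). The region 24 bp upstream of the S6k start, which is also 18 bp from the start of kri, had 37.6 in the pooled list (rank 6323). It ranked at 3135 in replicate 2, and the nearest summit of replicate 3 at 26644. Another replicate 3 region that overlaps it, with its summit further into the gene, ranked at 9684. A further intron region had 41.5 (rank 5448), with rank 16124 in replicate 2 and 4276 in replicate 3. The region at the S6k start and this further intron region thus differed widely in rank between replicates, and the best region less so.

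**Figure D4:**
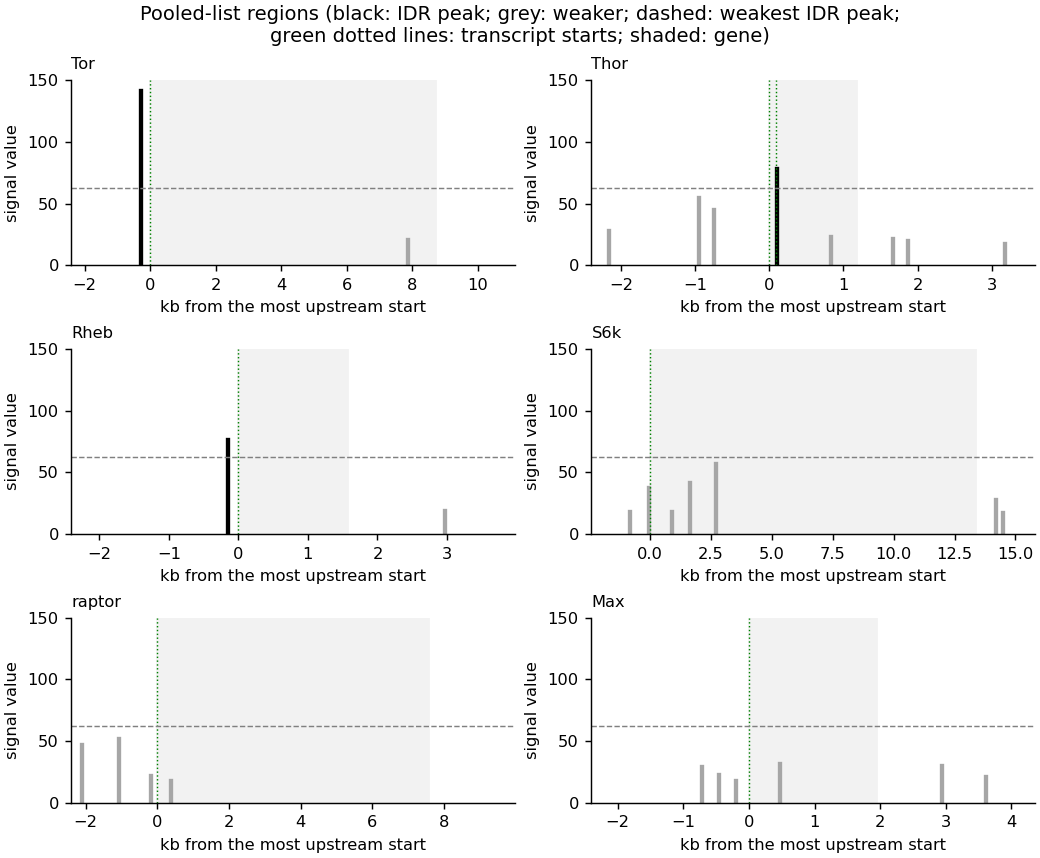
Signal of each pooled region over Max, Tor, raptor, S6k, Thor and Rheb and 2 kb to either side, placed by the distance of its summit from the first transcript start. The IDR peaks of Tor (141), Rheb (75.9) and Thor (78.1) lie within 500 bp of a start, while the highest regions of raptor (51.3) and S6k (56.6) lie 1080 bp upstream and 2714 bp downstream of theirs.

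Most of the words searched are rare under summits in general, so counts over 9 summits show little about these genes. The E-box CACGTG was within 50 bp of 0 of the 9 IDR summits, against 1.15% of all IDR summits and 1.44% of the 26329 pooled regions that overlap no IDR peak. Among the 48 weaker regions at the 8 genes it was found at 3 (6.25%), in the Max intron, upstream of Thor and at larp. The DRE TATCGATA was at 0 of the 9, against 3.00% of all IDR summits and 0.931% of weaker regions. CAACACTG, known from an earlier search of these peaks, was at 0 of the 9 (3.86% and 0.539%). The form CAGCNCTA of motif 7 was at 0 (1.58% and 0.896%), and CATCNCTA was at 1, the first larp start (3.00% and 1.05%). In the Tor sequence that word lay beyond 50 bp from the summit. GAGAG was at 0 of the 9 (10.1% and 12.9%). ATCGAT, which lies inside TATCGATA and was added after the sequences had been seen, was at 2 of the 9, against 8.51% of all IDR summits and 4.10% of weaker regions. It occurred at 2 sites under the Myc summit and 1 under the larp summit before the larp-RB start. A match describes the sequence and is no evidence that a factor sits there.

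Among 51 further genes of the insulin, TOR and Myc network, 15 (29.4%) had an IDR summit within 500 bp of a start, against 17.5% of all protein coding genes. The shares by replicate, with each one's strongest 3033 regions, were 31.4% and 29.4%, a mean of 30.4% ± 1.39 (SD, n = 2). Those of all protein coding genes were 17.3% and 17.2%. The network genes behind the shares by replicate differed in part. Replicate 2 alone kept 12 of the 15, without Mnt, foxo and mod, and added Atg13, Mondo, Pi3K92E and RagA-B. Replicate 3 alone kept 14 of the 15, without lid, and added eIF4E1. The list was written with earlier results of these data known. An IDR peak within 2 kb was found at 27 of the 51 (52.9%), against 30.6% of all protein coding genes.

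By group the share ran from 11.1% (TOR outputs) to 50% (insulin and PI3K branch), over 5 to 11 genes each, against 17.5% of all protein coding genes. Counts this small do not show that a group differs from that share or from another group. In the insulin and PI3K branch, 4 of 8 genes had an IDR summit at a start. The strongest was at Pi3K21B, the regulatory subunit of PI3-kinase, with a signal of 256 (rank 216) and ranks of 298 and 187 in replicates 2 and 3. InR, the insulin receptor, had 120 (rank 1045) at a start and 5 IDR peaks in its window. The transcription factor foxo, which insulin signalling holds back, had 90.9 (rank 1703, and 3094 and 1597 in replicates 2 and 3). The summits at the starts of Pi3K21B, InR and foxo all lay upstream of the start, at 52 to 234 bp.

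Among 5 genes of the TSC and TOR complexes, Sin1, a subunit of the second TOR complex, was the only one with an IDR summit at a start (93.5, rank 1627), where CG17385 also starts. Of the amino acid sensing genes, 2 of 10 had one. Sesn, a sestrin that restrains TOR, had the strongest of all 51, at 426 (rank 69, and 63 and 83 in replicates 2 and 3), with CG46429 starting within 500 bp. Wdr24, a subunit of the GATOR complex, had 129 (rank 923), with IntS11 starting within 500 bp. Among 9 TOR outputs, REPTOR, a transcription factor that TOR holds back, was the only one, at 257 (rank 212). That peak ranked at 469 and 161 in replicates 2 and 3, and the gene had 4 IDR peaks in its window. In the order given, the group shares were 20%, 20% and 11.1%, against 17.5% of all protein coding genes.

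In the Myc network, 5 of 11 genes (45.5%) had an IDR summit at a start, against 17.5% of all protein coding genes. Max, which is not among the 11, had none. bigmax, the partner of the sugar-sensing factor Mondo, had 197 (rank 389), with Hmu starting within 500 bp. brat, a repressor of Myc in neural stem cell lineages, had 90.8 (rank 1707), with Polr1D starting within 500 bp. A stronger brat region, at 187 (rank 433), lay in an intron 689 bp upstream of a brat start. The helicase gene rept had 88.7 (rank 1756), with mRpL21 starting within 500 bp. lid, the histone demethylase annotated as Kdm5, had 82.6 (rank 1966), with ranks that differed widely between replicates 2 and 3 (796 and 8767). Mnt, which opposes Myc on shared sites, had 81.0 (rank 2031, and 3049 and 1703 in replicates 2 and 3) at a start and 5 IDR peaks in its window. Of 8 growth targets of Myc, Fib, the nucleolar methyltransferase fibrillarin, had 107 (rank 1289), with CG3085 starting within 500 bp, and mod had 69.1 (rank 2623, and 7811 and 2054 in replicates 2 and 3), with krz starting within 500 bp. The other 6 had no IDR summit at a start, so the share among these targets was 25%.

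**Figure D5:**
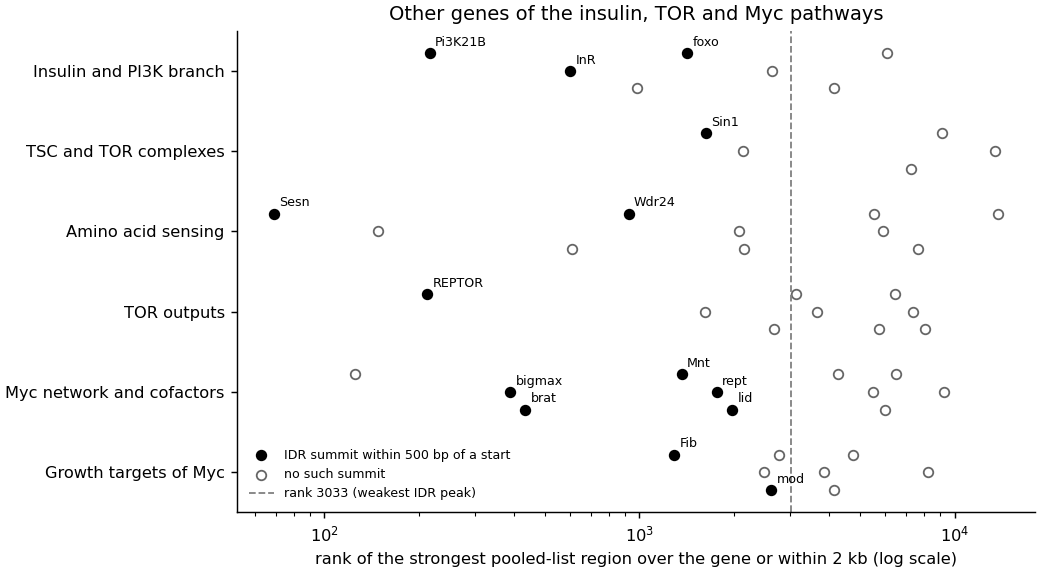
Best rank in the pooled list (log scale) of the regions over each network gene reported here or within 2 kb, by group, with filled points for genes with an IDR summit within 500 bp of a start and the dashed line at rank 3033. Sesn lies furthest toward rank 1 among the filled points, at 69. For InR (603), foxo (1419), Mnt (1361) and brat (433) the point is a stronger region than the one at a start.

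The IDR peaks most like each gene's peak by signal were the ones ranked just above and below it. For the larp intron peak at 742 these lay at CG32772 (750) and CG8320 (699). For Tor at 141 they lay at S and or. For Myc they lay at ftz-f1 and cue, for Thor at mtgo and GAPcenA, and for Rheb at Pgant5 and eIF4A. The other larp peaks lay between lncRNA:CR44730 and cwo, CG7878 and Ptpmeg, CG11601 and CG44838, and CG5001 and bi. The likeness is of 1 signal value in the pooled list of 2 replicates.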

How the data were processed

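The authors deposited narrowPeak lists of ChIP-seq regions on dm6 for replicate 2, replicate 3, both pooled, and the IDR peaks. The 4 lists on dm3 were not used here. The signal value of each region and the −log10 of its q-value are the authors' deposited values, and so is the summit offset in bp. Chromatin was sheared to 200 to 800 bp, per the labels. Per the deposited manifests, each replicate list came from its own alignment and 1 further input that is not described. Alignment and peak calling software and the threshold of the IDR step are not given in the sources used here. No reads are in the lists, so depth and the precision it gives are unknown.

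Positions were made 1-based and joined, at an overlap of at least 1 bp, to genes and transcript starts of Ensembl release 115 (BDGP 6.54), with sequence from the NCBI Release 6 genome. All results are descriptions with no test, since there is 1 group. The 8 genes, the gene lists and the words were chosen with earlier results of these data known. Of 52 network symbols, 51 were matched by name or synonym, and Lobe was not. The text names the 8 genes, other genes starting within 500 bp of their summits, network genes with an IDR summit at a start, and the peaks ranked next to each gene's peaks. A network gene that the rule takes is counted but not reported here. Network genes that a single replicate added fall outside that rule and were named after their values were seen. Alternatives were other windows, start distances and word windows, a summit rule for overlap, protein coding transcripts alone, the IDR peaks above their median signal, and each replicate alone. Python 3.11.15 with numpy 2.4.6, pandas 2.3.3 and matplotlib 3.10.9 was used. The overlap code was tested on simulated data and gave the same calls as a brute-force search in 4000 of 4000 cases.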

Additional observations from a re-analysis of the deposited data

How the results depend on the processing

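With the IDR peaks above their median signal alone, 2 of the 8 genes (larp and Tor) had a peak over the gene or within 2 kb, against 5, while the share of all protein coding genes went from 30.6% to 18.0%. The same 2 had a summit within 500 bp of a start, against 4, and of the 51 network genes 8 had one, against 15, while the share of all protein coding genes went from 17.5% to 9.66%. With each replicate's strongest regions alone, the counts ranged from 4 to 6 within 2 kb, from 3 to 4 at starts and from 15 to 16 for the network genes. The shares of all protein coding genes were 30.5% to 30.7% within 2 kb and 17.2% to 17.3% at starts. The words depended on the width searched. CAGCNCTA was in 1 of the 9 IDR peaks within 100 bp of the summit and in 1 over the whole region, against 0 within 50 bp. CATCNCTA was in 2 at both widths, against 1. GAGAG was in 1 within 100 bp and in 5 over the whole region, against 0. ATCGAT was in 4 over the whole region, against 2. Other windows, other start distances, the summit rule and protein coding transcripts alone kept each count within 1.5 times its main value. The shares of all protein coding genes moved too. Gene bodies alone gave 4 of the 8 genes against 17.5%, and a 5 kb window 5 against 42.1%. Within 200 bp of a start, 3 of the 8 and 10 of the 51 network genes had a summit, against 13.0%. Within 1000 bp the counts were 4 and 20, against 19.9%. Leaving out peaks whose nearest start belongs to another gene, an alternative chosen after seeing the data, removed Tor and gave 4 genes within 2 kb and 3 at starts. Depth is unknown, so no limit of detection can be given for Max, raptor or S6k.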

Other observations

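Several network genes had a strong region within 2 kb whose nearest transcript start was that of a neighbour. The strongest region at pont, the helicase gene that works with rept, had a signal of 324 (rank 125) and lay 120 bp upstream of the start of Nuak. The strongest region at mio, a subunit of the GATOR complex, had 303 (rank 148) and lay 285 bp upstream of the start of papi. At RagC-D, a GTPase of amino acid sensing, it had 161 (rank 609) and lay 38 bp downstream of the start of CG30373. At RpS6, the ribosomal protein that S6k phosphorylates, it had 68.3 (rank 2664) and lay 37 bp upstream of the start of bys. Each replicate's own best region was among its strongest 3033 at pont (ranks 110 and 149), mio (134 and 158) and RagC-D (605 and 665). At RpS6 it ranked at 1511 in replicate 2 and 4214 in replicate 3. These replicate regions were not matched by position to the pooled ones. These 4 genes were chosen after their values were seen.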
